A study of Mus musculus with 2 samples.

Results

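The set consisted of 10 genes that code for replication-independent histone variants, of 21853 protein-coding genes in the annotation. They were H2afz, H2afv, H2afx, H2afj, H2afy and H2afy2 for variants of histone H2A, H3f3a, H3f3b and Cenpa for variants of histone H3, and H1f0 for a variant of the linker histone H1. The members are given by symbol and not by a threshold on any measured value, but they were chosen with earlier results of these data known. For each of them every LSD1 peak that overlapped the 1 kb on either side of a start of a protein-coding transcript (the promoter) was collected, as was every peak from 10 kb upstream to the end of the gene (the window). Their scores were compared with those of promoter peaks at the genes whose symbols start with Hist1h.

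The peaks came from chromatin immunoprecipitation and sequencing (ChIP-seq) of LSD1 in primary brown adipocytes of C57BL/6 N mice of the control genotype, taken at passages 2 to 3. The cells grew on collagen with 20% fetal bovine serum. To turn them into adipocytes they were given a mixture of hormones (insulin at 850 nM and T3 at 1 nM), the glucocorticoid dexamethasone at 1 µM, the PPARγ agonist rosiglitazone at 1 µM, indomethacin at 125 nM and isobutylmethylxanthine, which raises cAMP, at 500 µM. There was 1 LSD1 library, made with an antibody raised in the submitters' own laboratory, and 1 input library made without antibody, for which no processed values were analysed here. With 1 library per group no difference below has a replicate check, and no test was made.

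The deposited list held 59175 peaks on mm10, each with 1 score. The score is the authors' own value per peak. No source used here gives its scale, so it serves only to describe and rank peaks within this list. Scores ran from 50.1 to 3224 with a median of 111, and the highest 10% lay above 391. The list gives no read counts, so the depth is unknown. A peak list does not measure expression. Of 7 brown adipocyte genes looked up to see what the list holds, 6 had a promoter peak, against 55.8% of all protein-coding genes, with scores from 76.0 at Adipoq, the gene of the adipocyte hormone adiponectin, to 401 at Pparg, the master regulator of fat cell formation. Ucp1, the uncoupling protein of brown fat, had none.

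Replication-dependent histones are made in S phase from clustered genes without introns, whose messages end in a stem-loop instead of a poly(A) tail. Replication-independent variants are made from scattered genes, many with introns and polyadenylated messages, and can be placed into chromatin outside S phase, so that in cells that have stopped dividing they replace part of the histones laid down at replication. LSD1 is a histone demethylase that removes methyl groups from lysine 4 of histone H3 and works in complexes with CoREST and histone deacetylases.

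Sequence upstream of the exons of protein-coding transcripts is shown for 5 members that span the range of scores. These are H1f0, H2afz and H2afj from among the high-scoring members and Cenpa and H2afy as the 2 lowest. The Hist1h genes with the highest score (Hist1h4f, shown for the pair that shares its peak) and with the lowest score (Hist1h2ba, also one of a pair that shares its peak) are shown for comparison. The sequences were read from the RefSeq promoter table of the GRCm38.p6 assembly, whose chromosomes are those of mm10, and are written 5′ to 3′ on the gene's strand. Capitals mark CCAAT or TATAAA, letters of the CCAAT box and the TATA box, on either strand, so that ATTGG is CCAAT read on the other strand.
H1f0, chr15:79028062-79028211, plus strand: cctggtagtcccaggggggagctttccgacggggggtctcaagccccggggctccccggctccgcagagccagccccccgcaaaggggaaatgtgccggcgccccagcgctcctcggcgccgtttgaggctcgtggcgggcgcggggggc
H2afz, chr3:137864337-137864486, plus strand: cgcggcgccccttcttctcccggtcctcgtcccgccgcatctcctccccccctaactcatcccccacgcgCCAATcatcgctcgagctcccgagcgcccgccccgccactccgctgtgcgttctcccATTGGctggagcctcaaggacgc
H2afj, chr6:136808094-136808243, plus strand: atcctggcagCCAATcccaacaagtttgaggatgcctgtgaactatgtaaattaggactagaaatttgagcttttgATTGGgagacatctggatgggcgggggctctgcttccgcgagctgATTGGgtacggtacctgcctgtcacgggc
Cenpa, chr5:30666636-30666776, plus strand: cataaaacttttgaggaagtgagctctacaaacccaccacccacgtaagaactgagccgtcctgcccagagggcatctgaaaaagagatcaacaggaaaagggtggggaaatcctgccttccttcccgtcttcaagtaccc
H2afy, chr13:56135632-56135781, minus strand: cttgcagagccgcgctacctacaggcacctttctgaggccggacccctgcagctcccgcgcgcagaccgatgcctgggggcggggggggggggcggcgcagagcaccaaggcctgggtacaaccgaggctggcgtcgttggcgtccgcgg
Hist1h4f, chr13:23551669-23551818, minus strand: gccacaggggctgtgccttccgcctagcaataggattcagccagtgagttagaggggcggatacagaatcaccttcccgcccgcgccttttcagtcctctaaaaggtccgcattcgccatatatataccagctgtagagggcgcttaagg
Hist1h2ba, chr13:23934157-23934306, minus strand: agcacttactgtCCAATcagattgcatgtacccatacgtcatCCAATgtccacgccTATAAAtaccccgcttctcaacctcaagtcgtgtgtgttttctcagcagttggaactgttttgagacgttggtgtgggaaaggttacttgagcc
The H2afz stretch holds CCAAT letters at 2 places and the H2afj stretch at 3, while the stretches of H1f0, H2afy, Cenpa and Hist1h4f hold neither motif. The Cenpa stretch ends 109 bases before the RefSeq start and the H2afy stretch 81 bases before it, because annotated exons follow, and CCAAT letters of Cenpa lie in the bases not shown. The Hist1h2ba stretch holds both. The H1f0 stretch ends at a RefSeq start that lies 238 bases before the start used for its peaks. The H2afy stretch lies upstream of the gene's protein-coding starts but inside the annotated gene.

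All 10 members had a promoter peak, against 55.8% of all protein-coding genes (12199 of 21853). All 10 also had a peak in the window, against 69.8% of all protein-coding genes. Their highest promoter scores ran from 76.3 at H2afy to 1067 at H1f0. The median was 415, with quartiles at 129 and 692. Over all genes with a promoter peak the median was 315, with quartiles at 156 and 570. Of the members, 5 scored above that median and 5 below it. The promoter peaks of 5 members lay in the highest 10% of all scores. It was so for 4984 of the 12199 genes with a promoter peak, which is 22.8% of all 21853 protein-coding genes. Because all 10 members had a promoter peak, the share among the 12199 genes is the like comparison, and it is higher than 22.8%. The promoters of the members were also rich in CpG. Their CpG content (observed over expected CpG in 1 kb around the start) had a median of 0.933, against 0.614 over all genes. In the CpG-richest of 10 equal classes, which held 6 of the members, 93.4% of genes had a promoter peak.

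**Figure D1:**
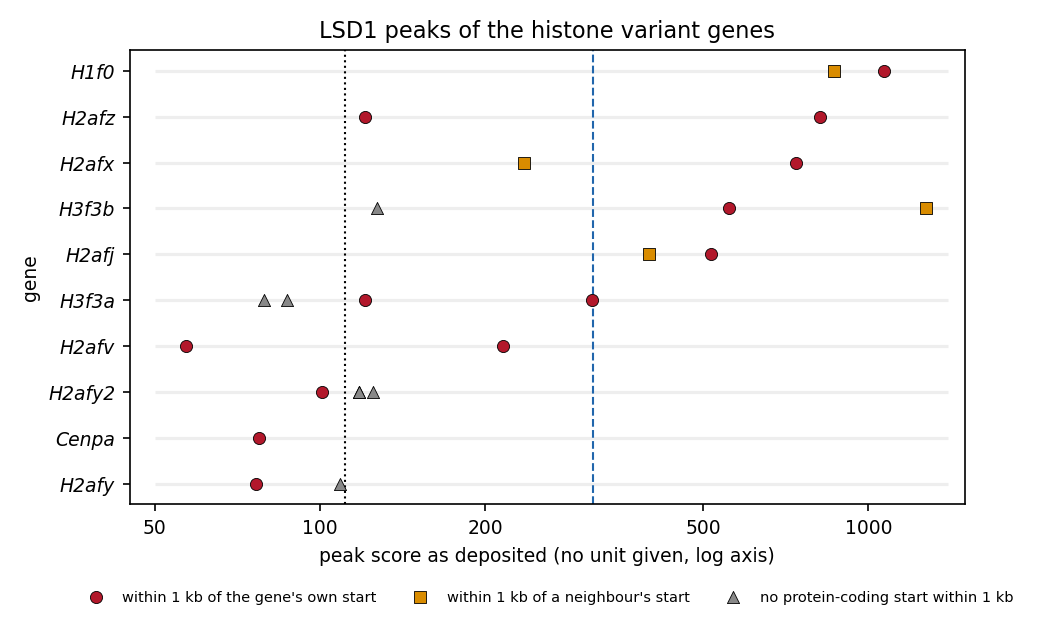
Score of each LSD1 peak in the regions of the 10 variant genes (x axis, score as deposited, log axis), with genes ordered by highest promoter score. Circles are peaks within 1 kb of the gene's own start, squares peaks within 1 kb of a neighbour's start and triangles peaks with no protein-coding start within 1 kb; the dotted line is the median of all peaks (111) and the dashed line the median of promoter-bound genes (315), 5 genes have a circle to the right of the dashed line, and 2 triangles of H2afy2 at 118 overlap.

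The members' regions held 24 peaks. Of these, 13 were promoter peaks and 11 lay elsewhere in the window of 7 genes. No promoter peak of a member also lay over the promoter of another protein-coding gene. H2afz, H2afv and H3f3a had more than 1 promoter peak, that is 3 of 10 members. It was so for 2972 of the 12199 genes with a promoter peak, which is 13.6% of all 21853 protein-coding genes. Here too the share among the 12199 genes is the like comparison, and it is higher than 13.6%.

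Among the H2A variants, the genes of the H2A.Z pair differed in score. H2afz codes for H2A.Z, a variant found at nucleosomes beside active and poised starts. Its main peak, chr3:137863744-137864894, scored 817 and was 1151 bp wide. It reached from 743 bp upstream to 407 bp downstream of the nearest start and covered all 3 starts of the gene. The score was at or above that of 97.4% of all peaks and of 93.2% of promoter peaks within 5% of its width (all percentiles below count ties in this way), so it was high also among peaks of like width. A second peak, chr3:137865340-137866024, lay with its midpoint in an intron and scored 121 over 685 bp.

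H2afv codes for the H2A.Z paralog H2A.V (also called H2A.Z.2), which replaces H2A in the same kind of nucleosome. Its main peak, chr11:6444252-6445057, scored 216 over 806 bp and covered both starts. A downstream peak in an intron, chr11:6443135-6443724, scored 56.9 over 590 bp. That was the lowest promoter peak of the set and was above only 0.392% of all peaks. H2afz scored above H2afv although the CpG content of both promoters was nearly equal, at 0.998 and 1.000. In their shared CpG class H2afz stood above 80.1% of bound genes and H2afv above 21.4%.

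H2afx codes for H2A.X, the variant that is phosphorylated around DNA double-strand breaks. The gene has 1 exon. Its promoter peak, chr9:44334135-44335482, scored 737 over 1348 bp, ran from 559 bp upstream to 788 bp downstream of the start, and 31.8% of it was coding exon. A second peak in its window, chr9:44325730-44326669, scored 236 and lay near the start of Dpagt1, an enzyme of protein glycosylation, which was 646 bp from the peak's midpoint. The peak nearest to H2afx itself was therefore the stronger by score.

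H2afj codes for H2A.J, a variant that differs from canonical H2A mainly in its tail and accumulates in senescent cells. Its promoter peak, chr6:136807637-136809401, scored 517 over 1765 bp and covered both starts. The peak was wide for its score, which was above 20.5% of promoter peaks within 5% of its width. Upstream, chr6:136803098-136805014 scored 398 over 1917 bp at the start of Hist4h4, a replication-dependent H4 gene, which was 359 bp from its midpoint. H2afj and a replication-dependent histone gene thus carried separate peaks of similar score less than 10 kb apart.

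H2afy and H2afy2 code for macroH2A1 and macroH2A2, large variants with a macro domain that are abundant on the inactive X chromosome. They scored low at their starts. The H2afy promoter peak, chr13:56134964-56135559, scored 76.3 over 596 bp and covered 1 of 2 starts, and no other member's highest promoter score was lower. Among bound genes of its CpG class H2afy stood above 0.815%. The H2afy2 promoter peak, chr10:61783519-61784196, scored 101 over 678 bp and stood above 8.26% of bound genes in its class. The H2afy peak lay wholly inside the annotated gene and began 29 bp upstream of the inner of its 2 starts, the one it covered. The H2afy2 peak lay almost wholly inside its gene, beginning 49 bp upstream of the start.

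The macroH2A genes also held peaks deep inside introns that scored higher than their own promoter peaks. In H2afy the intronic peak chr13:56092042-56092652, 43183 bp downstream of the nearest start, scored 109. In H2afy2 there were 3 intronic peaks. These were chr10:61759722-61760391 with a score of 118, chr10:61762502-61763002 with 118 and chr10:61766804-61767513 with 125, at 24091, 21395 and 16989 bp from the start. These 4 scores are close to the median of all peaks, 111.

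H3f3a and H3f3b both code for the same protein, H3.3, the H3 variant placed at active genes by HIRA and at heterochromatin by DAXX and ATRX. At H3f3a, which has 5 starts within 409 bp, the higher peak was chr1:180813810-180814673, with a score of 313 over 864 bp, upstream of most starts. The lower, chr1:180813135-180813710, scored 121 over 576 bp and covered 4 of the 5 starts. The higher peak therefore lay over the outermost start. Its window also held chr1:180811574-180812159 inside the gene, with a score of 78.9, and chr1:180816568-180817163 in intergenic sequence, with 87.0.

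H3f3b has 2 starts 3458 bp apart. Its promoter peak, chr11:116023485-116025161, scored 557 over 1677 bp and covered the downstream start, which is also the RefSeq start. The outer start had no peak within 1 kb. H3f3b thus scored above H3f3a, in the same CpG class, where the genes stood above 62.4% and 35.7% of bound genes. Within 5% of its width, though, the H3f3b peak was above 33.7% of promoter peaks and the main H3f3a peak above 83.8%, so the order of the H3.3 genes turned once width was matched.

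The top score anywhere in the members' regions lay in the H3f3b window but belongs by position to its neighbour. The peak chr11:116029679-116030990 scored 1273 over 1312 bp, and its midpoint was 12 bp from the start of Unk, which codes for an RNA-binding zinc finger protein. A further peak in an intron of Unk, chr11:116031371-116032201, scored 127. Both were outside the promoter of H3f3b as defined here.

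Cenpa codes for CENP-A, the H3 variant that marks centromeres and is made late in the cell cycle. It had 1 peak in all, chr5:30666401-30666992, with a score of 77.3 over 592 bp. The peak covered all 3 starts. It was above 9.36% of all peaks and above 1.79% of bound genes in its CpG class, and Cenpa had the lowest promoter CpG content of the members, 0.749.

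H1f0 codes for H1.0, the linker histone that accumulates in differentiated, non-dividing cells. Its gene has 1 exon and its promoter peak had the highest score of the set. The peak chr15:79027685-79029449 scored 1067 over 1765 bp, above 98.7% of all peaks and above 90.8% of bound genes in its CpG class. It ran from 765 bp upstream to 999 bp downstream of the start, and 33.0% of it was coding exon. A second strong peak, chr15:79029882-79031592, scored 867 at the start of the neighbour Gcat, an enzyme of threonine breakdown, 137 bp from its midpoint. Together the pair of peaks covered 79.0% of the H1f0 gene.

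**Figure D2:**
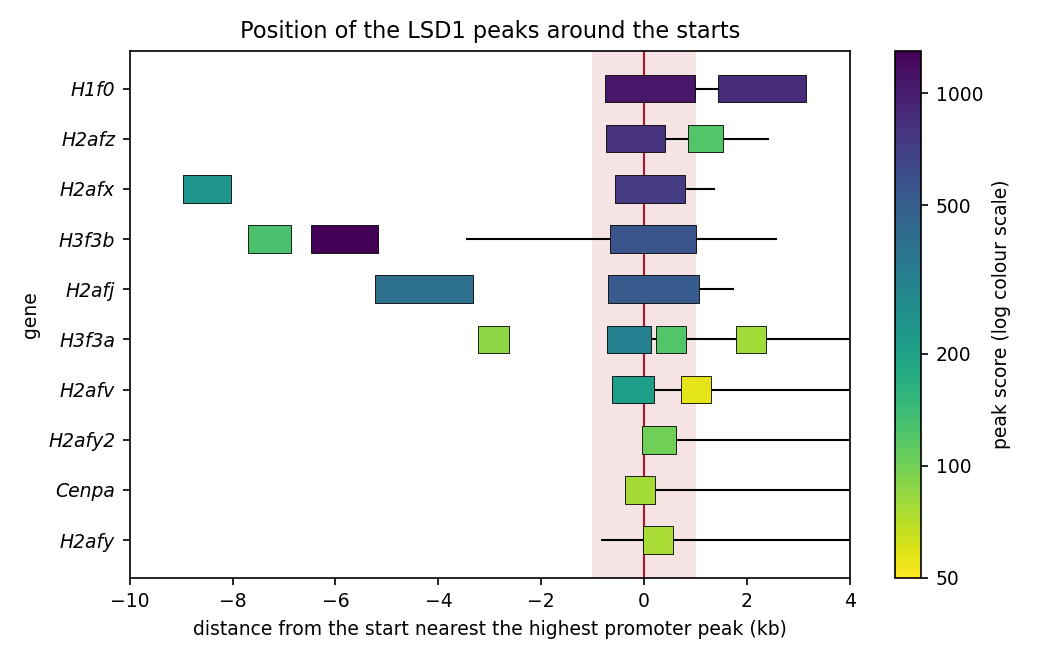
Position of the peaks of each variant gene (y axis) along the direction of transcription (x axis, kb from the gene's start nearest its highest promoter peak, transcription to the right), coloured by score on a log colour scale; black lines are gene bodies drawn up to 4 kb, and the shaded band is 1 kb on each side of that start. The intronic peaks of H2afy (1) and H2afy2 (3) lie beyond the right edge and are not drawn, and the upstream peaks of H2afx, H2afj and H3f3b are those near neighbouring starts except 1 in an intron of Unk.

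Of the 11 window peaks outside promoters, 4 lay within 1 kb of a neighbouring gene's start, those at Dpagt1, Hist4h4, Unk and Gcat. Their scores were 236, 398, 1273 and 867. The other 7 had no protein-coding start within 1 kb and scored from 78.9 to 127. At the variant genes the high scores outside the members' own promoters were therefore at other starts.

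Scores of the members went with the length of the gene, a relation noticed after their values were seen. The 5 members shorter than 7 kb, H2afx, H2afj, H1f0, H2afz and H3f3b, scored from 517 to 1067 with a median of 737. The 5 longer ones, Cenpa, H3f3a, H2afv, H2afy2 and H2afy, scored from 76.3 to 313 with a median of 101. These ranges did not overlap, and the 5 short members are the same 5 that lay in the highest 10% of scores. The limit of 7 kb was set with the values seen and lies in the gap between H3f3b (6051 bp) and Cenpa (8054 bp). Across the 10 members Spearman's rho of length and highest promoter score was -0.794. Across 12199 promoter-bound genes it was 0.0318, and across the 54 Hist1h genes it was 0.200. The medians of all bound genes shorter and longer than 7 kb were 321 and 315, and their ranges overlapped (57.1 to 3224 and 51.4 to 3224). The relation seen over the members is thus not seen over all genes. It describes 10 genes of 1 library.

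**Figure D3:**
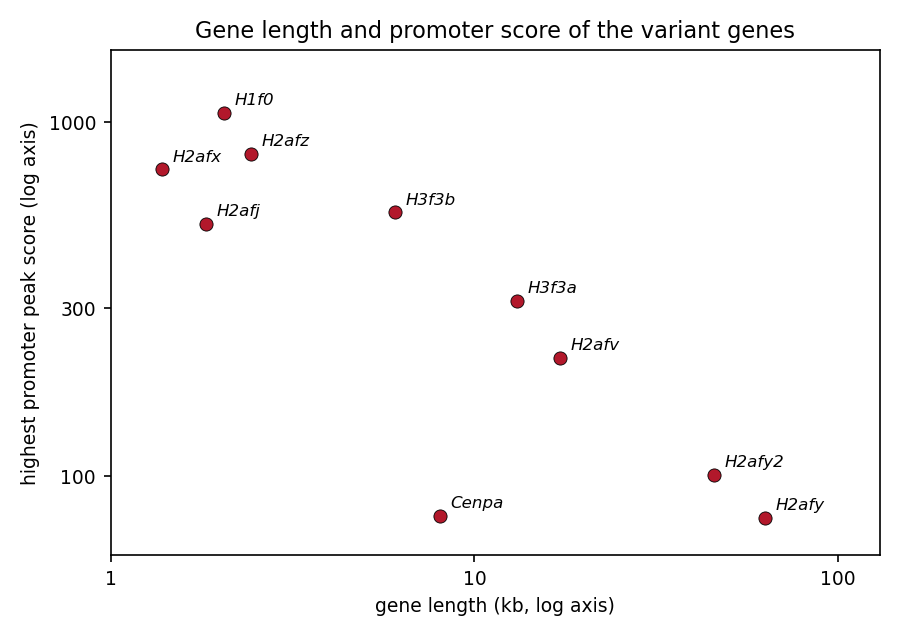
Highest promoter score (y axis, log axis) against gene length in kb (x axis, log axis) for the 10 variant genes, each point 1 gene. Cenpa lies low at 8054 bp, and all 5 genes to its left score 517 or more.

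The Hist1h genes, the large replication-dependent cluster on chromosome 13, stood far above the variants. All 54 had a promoter peak, and their median highest promoter score was 3100, with quartiles at 2150 and 3100. The ratio to the members' median was 7.47. Of the 54 genes, 51 scored above H1f0, the highest member. The score 3100 occurred at 33 peaks of the whole list with 1 peak above it, and 36 Hist1h genes were at or above it, so most of these genes cannot be ranked against each other. Whether the score is capped at this value is not known. If it is, the Hist1h median and the ratio of 7.47 are lower bounds. Neighbouring Hist1h genes share peaks: the 54 genes had 27 distinct highest peaks, of which 17 served 2 or more genes and 1 served as many as 5. The members shared none.

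The highest Hist1h score was 3224 at the peak shared by Hist1h4f and Hist1h1d, 3116 bp wide, followed by Hist1h2bl among the genes tied at 3100. The 3 lowest were Hist1h1t with 432, and Hist1h2ba and Hist1h2aa with 109 at a shared peak of 612 bp. These code for testis-type histones. The next lowest Hist1h gene scored 1169, above every member, and of the 10 members 7 scored above the pair at 109. No Hist1h gene lacked a promoter peak.

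The peaks of the Hist1h genes were also wider. The highest promoter peaks of Hist1h genes had a median width of 3792 bp (612 to 11051 bp), against 1008 bp (592 to 1765 bp) for the members and 1027 bp for all bound genes. Over all 14423 promoter peaks of the list, Spearman's rho of width and score was 0.897. Divided by width, the medians were 683 per kb for Hist1h genes, 313 for members and 290 for all bound genes, so the ratio of Hist1h to members became 2.18. Among peaks tied at 3100 the value per kb is set by width alone, so under a cap 683 and 2.18 would be too low, and no member is ranked against Hist1h genes on this measure. Among the members, H2afz had 710 per kb of peak, H1f0 605 and H2afx 547, while H2afy, Cenpa and H2afy2 had 128, 131 and 148. Peaks covered all of the gene at 43 of 54 Hist1h genes (median 100% of the gene). They covered a median of 18.8% of a member, from 1.92% of H2afy to 79.0% of H1f0. The 3 members with a transcript of 1 exon (H2afx, H2afj and H1f0) were covered over 57.0 to 79.0%.

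**Figure D4:**
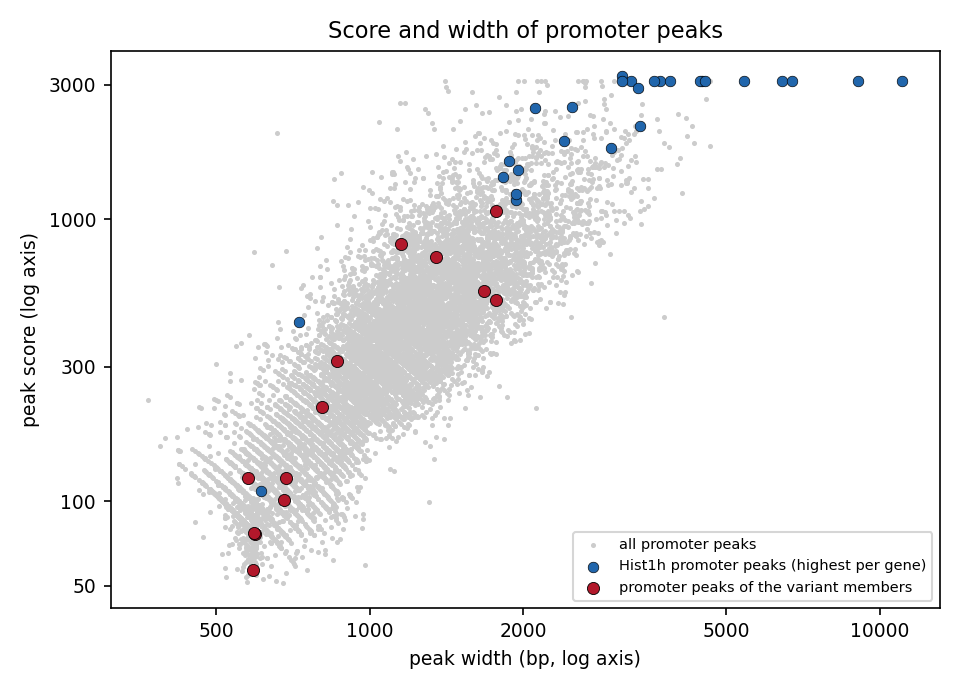
Score (y axis, log axis) against width in bp (x axis, log axis) of promoter peaks: grey points are all 14423 promoter peaks, blue points the highest peak of each Hist1h gene and red points the 13 promoter peaks of the variant genes. Red points lie within the grey cloud up to 1765 bp, and all blue points but those of the 3 lowest genes lie at or above 1169 in score, with a row at 3100.

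Repeated sequence differed between the sets. In the members' 13 promoter peaks a median of 4.48% of 32-base words occurred elsewhere in the genome (0 to 13.7%), with 6 peaks at 0. In the 27 Hist1h peaks the median was 19.2% (3.31 to 98.5%). Among the members the share was 13.7% at H2afx, 12.7% at H3f3b and 0 at H1f0, Cenpa and H2afy. No source used here says how reads that match several places were handled, and the part of repeated sequence in the scores was not tested. The share was 9.80% at H2afj and 6.34% in the main peak of H2afz. Of the 5 members in the highest 10% of scores, only H1f0 had no such words in its promoter peak. Among the lower-scoring members, H2afy2 had 4.48%, and the main peaks of H2afy, Cenpa, H2afv and H3f3a had none.

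The replication-dependent genes outside Hist1h, whose symbols start with Hist2h, Hist3h and Hist4h, also scored above the members. All 13 had a promoter peak, with a median of 1817. They ranged from 398 at Hist4h4, the neighbour of H2afj, to 2145 at Hist2h3c2 and Hist2h2aa2, which share a peak. The members' median of 415 was near the low end of that range.

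**Figure D5:**
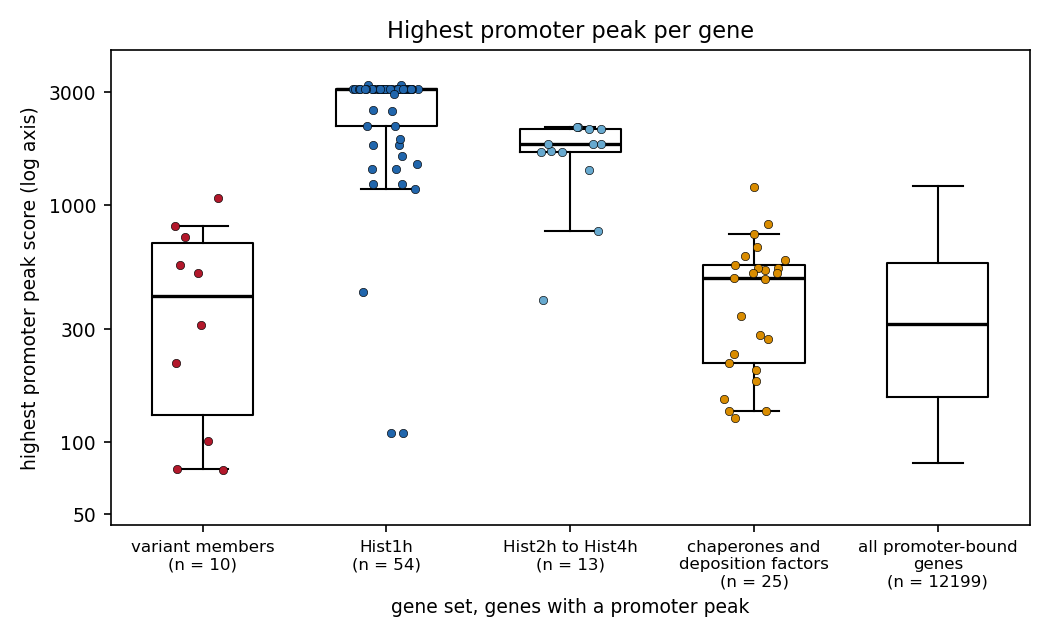
Highest promoter score per gene (y axis, log axis) for 5 sets of genes with a promoter peak (x axis); points are genes, boxes show the median and quartiles and whiskers the 5th to 95th percentile. The 10 variant genes have a median of 415, the 54 Hist1h genes 3100, the 13 other replication-dependent genes 1817, the 25 chaperone and deposition genes 495 and all 12199 bound genes 315.

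Other replication-independent variants, mainly of the germ line, had fewer peaks. Of 8 such protein-coding genes, 3 had a promoter peak (37.5%, against 55.8% of all genes). These were H1fx, a linker histone of somatic cells, with 400, Hils1, a spermatid linker-like protein, with 100, and H1foo, the oocyte linker histone, with 78.4. H1fnt, H2afb1, H2afb2, H2afb3 and H2al2a had none. The promoters of these 8 genes were poor in CpG, with a median content of 0.281 against 0.614 over all genes. Promoters poor in CpG had fewer peaks in general. The share of genes with a promoter peak was 33.6% in the class that holds 0.438 and 3.48% in the CpG-poorest class. H3f3c is not protein-coding in the annotation used. Only H1fx was near the members' median.

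Genes of the chaperones and remodellers that place, remove or read the variants were mostly bound. Of 31 such genes, 25 had a promoter peak (80.6%, against 55.8% of all genes). The median score was 495, from 126 to 1188. The promoters of the 31 genes were rich in CpG, with a median content of 0.879 against 0.614 over all genes. A promoter at 0.879 falls in a CpG class where 89.8% of genes had a promoter peak. For H3.3, 7 of 8 were bound with a median of 518. The H2A.Z factors were bound at 9 of 9 genes with a median of 283. The general factors were bound at 3 of 6 genes with a median of 182. The highest were Asf1b, an H3-H4 chaperone, with 1188, Ep400, an ATPase that exchanges H2A.Z, with 835, Atm, the kinase that phosphorylates H2A.X, with 758, Znhit1, a subunit of the SRCAP complex, with 664, and Anp32e, which removes H2A.Z, with 608. No promoter peak was listed at Atrx, Hjurp, Hells, Ssrp1, Nasp or Chaf1a. Thus Cenpa had a low-scoring promoter peak and Hjurp, the chaperone of CENP-A, had none.

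Promoter letters were counted in the 250 bases before the RefSeq start, on both strands, for the 9 members that matched the table (all but H2afx), 50 Hist1h genes and 21263 RefSeq promoters. CCAAT occurred in 6 of 9 members (66.7%), namely H2afz, H2afv, H2afj, H3f3a, H3f3b and Cenpa. It occurred in 84.0% of Hist1h promoters and in 35.4% of all promoters. TATAAA occurred in 1 member, H3f3b, 27 bases before the start (11.1%), in 25 of 50 Hist1h promoters and in 11.6% of all. GGGCGG, the Sp box, occurred in 5 members (55.6%), 30.0% of Hist1h and 42.6% of all promoters. By these letters the members stood nearer to Hist1h genes for CCAAT and nearer to all promoters for TATAAA. H1f0 and H2afy2 held none of these 3 motifs although their scores were the highest and among the lowest. The RefSeq start of H2afy2, however, lies 283 bases downstream of the start used for its peak. The 250 bases searched for H2afy2 thus lie inside the annotated gene, and the bases before the start used for its peak were not searched.

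TGACGTCA, TTTGGCGC, TTTCCCGC, CCGGAAGT and TGACTCA (letters of the cAMP response element, 2 forms of the E2F site, the ETS site and the AP-1 site) occurred in 0 of 9 members. Over all promoters their shares were 1.92%, 0.508%, 1.19%, 3.79% and 4.06%. At the other end of the gene, the stem-loop letters TTTTCAGAG were found near the transcript end of 0 of 10 members and 21 of 54 Hist1h genes. Only exact letters were counted, so other forms of the stem-loop were not. The count covered the last 150 bases of a transcript and 50 past its end. Some further Hist1h genes, such as Hist1h1c and Hist1h1e, held the letters in exons outside that stretch, and no member did.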

How the data were processed

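LSD1 and input ChIP-seq libraries were made from the cells described above, 1 library each. Fixation lasted 5 min on day 10, per the series' design text. Per the labels' protocols the aligner was Bowtie2 and the genome build mm10, and the submitters' processing notes name MACS 1.41. Not given in the sources used here are the read filters, the version of Bowtie2, the peak threshold and the use of the input. The deposited list gives each peak's coordinates and a score, the authors' own value, of unknown scale. It gives no counts, so no depth or interval was computed.

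Coordinates are printed with the first base as 1. Genes and 54843 protein-coding starts came from GENCODE M21 on GRCm38.p6. A peak counted from 1 bp of overlap, and each gene was given its highest promoter score. Tools were Python 3.11.15, pandas 2.3.3, numpy 2.4.6, pysam 0.24.0 and matplotlib 3.10.9, and the overlap code was tested on simulated peaks. The gene lists, like the members, were chosen with earlier results of these data known. Named genes were all 10 members, the 3 highest and 3 lowest Hist1h genes, all other variants, the 5 highest and all unbound chaperone genes, and the 2 highest Hist2h to Hist4h genes. Hist4h4, Adipoq and Pparg and the neighbours of members were named after their values were seen. No tests were made, and 1 library per group allows no paired analysis. Alternatives were other promoter widths, starts, windows, score minima, width scaling, and sets of genes.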

Additional observations from a re-analysis of the deposited data

How the results depend on the processing

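A value counted as moved when it changed by more than 1.5 times. The ratio of the Hist1h median to the members' median, 7.47, kept its direction under every alternative run, and is a lower bound if the score is capped at the tied value. It was 2.18 per kb of peak width, 3.75 with Hist1h genes below the tied score and 4.20 with peaks in the highest 10% of scores only. In that last setting the members with a promoter peak numbered 5, those with a window peak 5, and their median score was 737. The count of members with a promoter peak was 9 with the gene's own 5-prime end, where H3f3b lost its peak, and 7 with only peaks at or above the list's median score of 111, where H2afy, H2afy2 and Cenpa lost theirs. Leaving out H1f0 gave a ratio of 9.90, leaving out Cenpa 5.99, and leaving out the 3 lowest Hist1h genes 7.47, all chosen after seeing the data. Of 61 values of single members under alternatives, 60 stayed within 1.5 times, and the exception was H3f3b, 1273 with promoters of 2.5 kb, which is the peak at Unk. No paired analysis was possible because there is 1 LSD1 library. With 1 library and unknown depth, the spread between replicates is not known.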
